A study of Mus musculus with 6 samples.

Results

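The genes described here are 8 tight junction genes that perineurial cells can use to seal a peripheral nerve: the claudins Cldn1, Cldn11 and Cldn12, the MARVEL domain genes Ocln and Marveld2, the junctional adhesion molecule gene F11r, and the plaque protein genes Tjp1 and Cgn. They were chosen by name and not by a measured value, but with earlier results of these data known. All 8 were found among the 39174 genes of the deposited expression tables, and all 8 were among the 21285 genes that passed the limit on low values (0.1 FPKM or more on the mean of 1 genotype). RNA sequencing had been performed on whole sciatic nerves of 3 wild-type mice (nerves 2, 4 and 5) and 3 Plekhg5-/- mice (nerves 2, 3 and 5), which are labelled as adult. The animals were 12 months of age. No other allele, Cre line or treatment is named for either group, and the mutant mice are called Plekhg5-deficient here. Sex, background strain and the way in which the gene was disrupted were not given in the sources used. The comparison asked whether the loss of Plekhg5 was accompanied by other levels of these transcripts in the nerve.

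The perineurium is the sleeve of flattened, basement membrane-coated cells around each nerve fascicle. Tight junctions between these cells, together with those of the endoneurial vessels, form the blood-nerve barrier. In a tight junction, claudins assemble into the strands that close the gap between neighbouring cells, occludin and tricellulin (the products of Ocln and Marveld2) are built into the same strands, and junctional adhesion molecules take part in their assembly. On the cytoplasmic side, ZO-1 (the product of Tjp1) ties the strands to actin and cingulin (the product of Cgn) joins this plaque. None of these proteins is confined to perineurial cells, since endothelial and Schwann cells form tight junctions as well. Plekhg5 encodes a guanine nucleotide exchange factor, is known as an activator of NF-κB, and is also called Syx.

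For 3 of the genes the 250 bases upstream of the annotated transcript start are shown (RefSeq, build GRCm38.p6, gene strand), because Cldn1 was the most abundant claudin of the 8 genes and Cldn11 and F11r were the 2 genes whose levels did not overlap between genotypes. The windows are chr16:26371840-26372089 on the minus strand for Cldn1, chr3:31149670-31149919 on the plus strand for Cldn11 and chr1:171437311-171437560 on the plus strand for F11r. Capitals mark the GC box, GGGCGG or its reverse complement CCGCCC.
Cldn1: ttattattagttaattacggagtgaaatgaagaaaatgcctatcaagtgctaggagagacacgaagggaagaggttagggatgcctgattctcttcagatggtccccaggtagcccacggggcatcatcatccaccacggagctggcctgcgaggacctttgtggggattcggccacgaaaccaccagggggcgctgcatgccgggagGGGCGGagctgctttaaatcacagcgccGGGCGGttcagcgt
Cldn11: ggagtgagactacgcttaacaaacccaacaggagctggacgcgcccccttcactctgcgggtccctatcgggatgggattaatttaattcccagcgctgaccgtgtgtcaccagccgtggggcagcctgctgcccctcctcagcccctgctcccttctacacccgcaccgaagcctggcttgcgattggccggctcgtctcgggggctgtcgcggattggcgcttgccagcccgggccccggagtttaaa
F11r: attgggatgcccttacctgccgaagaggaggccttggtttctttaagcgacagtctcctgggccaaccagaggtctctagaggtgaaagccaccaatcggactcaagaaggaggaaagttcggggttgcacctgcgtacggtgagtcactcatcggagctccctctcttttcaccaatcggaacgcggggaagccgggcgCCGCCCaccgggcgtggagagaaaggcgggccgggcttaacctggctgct
The Cldn1 window held 2 GC boxes, the F11r window held 1 and the Cldn11 window held 0, although G and C made up 63.6% of its bases (Cldn1, 55.6%; F11r, 60.0%). All 8 genes were matched by symbol, with 12 annotated windows, of which 10 held a GC box, as did 32.7% of 32851 mouse windows of the same length. Where a gene had several windows these overlapped, so the same box could be counted more than once. Of the 8 genes, 7 had a GC box in at least 1 window, and Cldn11 did not. Since Plekhg5 is known for NF-κB, the κB consensus was searched on both strands as well. It was found in 0 of the 12 windows and in 7.25% of all windows, which says no more than that this pattern of letters does not occur there.

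Libraries were checked before the genes were compared. Plekhg5 was measured at 3.65, 4.13 and 5.26 FPKM in the wild type and 0.141, 0.140 and 0.0521 FPKM in mutant nerves, and it fell in the latter (log2 difference -2.26, SE 0.18, limma adjusted p = 0.0380). FPKM are mapped fragments set relative to transcript length and to the size of the library, here divided by 1 factor per library (0.745 to 1.12) to make the libraries comparable. Since they are set per length, levels of different genes can be compared. Perineurial cells were represented: of 12 further perineurial genes, 11 were expressed above the limit, with Slc2a1 and Sfrp5 at 96.1 ± 14.5 and 411 ± 77.4 FPKM in wild-type nerves (SD, n = 3), and Krt23 was below it. Some libraries stood apart. In wild-type nerve 5, all 8 T-cell and B-cell markers exceeded every other library by 2-fold or more (summed 173.6 FPKM, against 3.22 to 8.03 elsewhere; Cd79a 37.1 and Cd79b 53.2 FPKM), and all 8 skeletal muscle genes (Acta1, Tnnt3 and others) and all 6 erythroid genes (Hba-a1, Hba-a2 and others) did so in Plekhg5-deficient nerve 5. Of the 8 oligodendrocyte markers, 7 were highest in wild-type nerve 2, and 0 genes of these 4 lists passed the adjusted threshold between genotypes.

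Within wild-type nerves the 8 genes spanned a wide range of levels. Tjp1 (85.4 ± 33.8 FPKM, SD, n = 3) and Cldn1 (77.4 ± 13.7) stood at the top, and their ranges overlapped. F11r followed at 34.1 ± 8.37 FPKM. Cldn11 (6.71 ± 0.884) and Cldn12 (5.91 ± 0.892) came next with overlapping ranges, although Cldn11 was above Cldn12 in all 3 wild-type nerves. Below them lay Ocln (3.17 ± 0.246), Marveld2 (0.403 ± 0.0931) and Cgn (0.149 ± 0.0440), each without overlap with the gene above it. In Plekhg5-deficient nerves the order was the same except for Cldn11 and Cldn12, which stood the other way round: Cldn12 (5.86 ± 1.11 FPKM) was above Cldn11 (2.60 ± 0.414) in all 3 libraries, and the ranges of this pair did not overlap there. In these nerves Cldn11 overlapped with Ocln, and Marveld2 with Cgn.

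Between genotypes, the mean of Cldn11 was 2.58-fold lower in the mutant and that of F11r 1.67-fold lower, both with no overlap between the libraries, that of Ocln was 1.70-fold lower with overlap, and those of Cldn1, Cldn12, Tjp1, Marveld2 and Cgn differed by less than their spread. Tests were made on log2(FPKM + 1) with limma over 3 animals per genotype, with p adjusted over all genes tested and called under 0.05. By this test 0 of the 8 genes passed in either direction. This threshold was met by few genes at all, namely 0.00940% of the 21285 genes tested on the lower and 0.0282% on the higher side. At an unadjusted p under 0.05, 2 of the 8 genes were lower in Plekhg5-deficient nerves (Cldn11 and F11r), where the share among all genes was 2.69%, and 0 were higher, where it was 2.41%. The same 2 genes were the ones without overlap between genotypes on the lower side, for which the share among all genes was 5.88%, and 0 genes did not overlap on the higher side (5.69% of all genes). The estimate was below 0 for 7 genes and above 0 for 1, and the median log2 difference was -0.12, against 0.0065 over all genes. The differences of Cldn11, F11r and Ocln lay below the lower limit of the middle 90% of all genes (-0.52), and those of the other 5 genes lay within it. The sign of the 5 differences nearest to 0 (Cldn1, Cldn12, Tjp1, Marveld2 and Cgn) depended on the setting and turned when libraries were weighted by their fit.

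**Figure D1:**
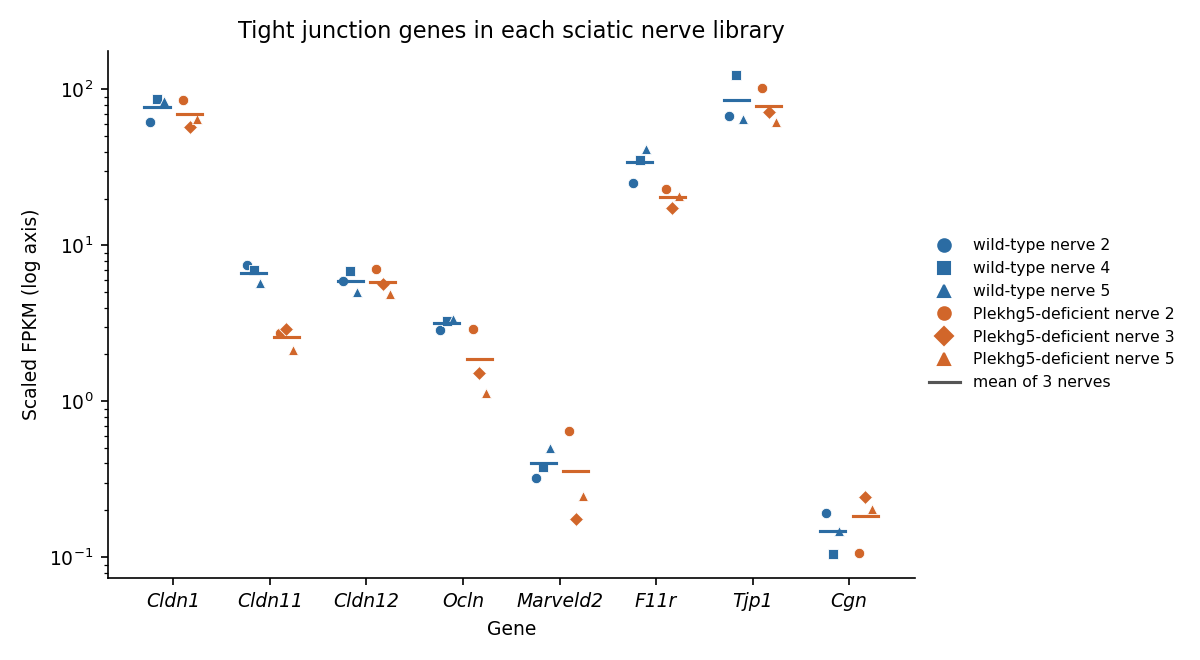
Scaled FPKM (log axis) of the 8 tight junction genes in each of the 6 sciatic nerve libraries, wild-type in blue and Plekhg5-deficient in orange, with a symbol for each nerve number and a bar at the mean of 3 nerves. For Cldn11 (2.13 to 2.91 against 5.73 to 7.46) and F11r (17.4 to 23.1 against 25.2 to 41.8) the Plekhg5-deficient points lie below all wild-type points, while for the other 6 genes the groups overlap.

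Among the claudins, Cldn11 had the largest difference. Cldn11 (ENSMUSG00000037625, chr3:31149946-31164324, GRCm38) encodes claudin-11, a strand protein best known from the myelin of oligodendrocytes and from Sertoli cells. It was measured at 7.46, 6.93 and 5.73 FPKM in nerves 2, 4 and 5 of the wild type and at 2.75, 2.91 and 2.13 FPKM in mutant nerves 2, 3 and 5. Every Plekhg5-deficient library was thus below every wild-type library, and the mean was 2.58-fold lower. The groups were also apart by the 95% intervals that Cufflinks gave for each library, which cover uncertainty within a library but not between animals: the lowest bound of a wild-type nerve was 4.67 FPKM (nerve 5) and the highest of a Plekhg5-deficient nerve was 3.43 FPKM (nerve 3). The log2 difference was -1.10 (SE 0.20, 95% interval -1.57 to -0.63), with an unadjusted p of 0.000951 from limma. After adjustment over all genes tested p was 0.447, so Cldn11 did not pass the threshold of 0.05, and the exact two-sided permutation test gave p = 0.1, the smallest value that 3 against 3 animals allow.

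Markers of 2 other cell types that use claudin-11 were lower on average as well. The 8 oligodendrocyte markers summed to 19.9, 5.04 and 3.35 FPKM in nerves 2, 4 and 5 of the wild type and to between 0.581 and 1.49 FPKM in mutant nerves. Of the 7 that could be tested, 0 passed the adjusted threshold, 2 were lower at an unadjusted p under 0.05 (Olig1 and Mobp; 2.69% of all genes), and 6 were lower without overlap (5.88% of all genes). Mobp, a gene of central myelin, reached 14.0, 3.30 and 1.47 FPKM in the wild type, and Mog, which defines mature oligodendrocytes, was at 1.47, 0.342 and 0.107 FPKM and at 0.0332, 0 and 0 FPKM in mutant nerves. Among wild-type nerves the summed markers and Cldn11 stood in the same order, with nerve 2 highest and nerve 5 lowest. Among mutant nerves 2, 3 and 5 the order differed. The summed markers were at 0.581, 1.49 and 1.13 FPKM there, and Cldn11 was at 2.75, 2.91 and 2.13 FPKM. Without wild-type nerve 2 the difference of Cldn11 in limma was -1.02 (unadjusted p = 0.00555). Of 8 genes of arachnoid and choroid plexus, 0 passed, 2 were lower at an unadjusted p under 0.05 (Slc6a13 and Ttr, the transthyretin gene) and 3 were lower without overlap, where the shares of all genes were 2.69% and 5.88%. The estimate was below 0 for 7 of them and above 0 for 1. Their sum ran from 50.6 to 556 FPKM in wild-type and from 33.4 to 122 FPKM in mutant nerves. Ptgds alone was at 519, 443 and 13.7 FPKM in nerves 2, 4 and 5 of the wild type, and its groups overlapped. Ttr did not follow Ptgds, at 13.9, 8.67 and 13.8 FPKM in the same wild-type nerves. In mutant nerves 2, 3 and 5 Ttr was at 0.926, 1.85 and 1.61 FPKM (log2 difference -2.41, limma adjusted p = 0.118). The part of either cell type in the difference of Cldn11 was not tested. In whole nerve, fewer cells of a type and less RNA per cell cannot be told apart, which holds for every gene described here.

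Cldn1 (ENSMUSG00000022512, chr16:26356642-26371841), the claudin by which perineurial cells are usually stained, was close to even between genotypes. Its level was 61.6, 86.3 and 84.2 FPKM in the wild type and 86.1, 57.2 and 64.5 FPKM in mutant nerves. The lowest value of all belonged to a Plekhg5-deficient nerve, yet Plekhg5-deficient nerve 2 matched the highest wild-type nerves, so the groups overlapped widely. The log2 difference of -0.16 (SE 0.23, limma adjusted p = 0.980) had a 95% interval from -0.71 to 0.39.

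Cldn12 (ENSMUSG00000046798, chr5:5505015-5514958) encodes a claudin that lacks the usual motif for binding ZO-1. It showed the smallest difference of the 8 genes. Its levels were 5.90, 6.81 and 5.02 FPKM in the wild type and 7.06, 5.65 and 4.88 FPKM in mutant nerves, with the highest and the lowest value both in the mutant. The log2 difference was -0.015 (SE 0.21, 95% interval -0.51 to 0.48, limma adjusted p = 0.999).

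Ocln (ENSMUSG00000021638, chr13:100496507-100552718), which encodes the strand protein occludin, was at 2.89, 3.26 and 3.36 FPKM in the wild type and 2.92, 1.52 and 1.14 FPKM in mutant nerves. Nerves 3 and 5 of the mutant were below every wild-type nerve, whereas Plekhg5-deficient nerve 2 lay within the wild-type range. The spread was therefore larger among Plekhg5-deficient nerves (1.86 ± 0.938 FPKM, SD, n = 3) than among wild-type nerves (3.17 ± 0.246), and the mean was 1.70-fold lower. The log2 difference of -0.59 (SE 0.26, 95% interval -1.22 to 0.035) had an unadjusted p of 0.0607 and an adjusted p of 0.974 from limma. Without Plekhg5-deficient nerve 2 it was -0.84, with an unadjusted p of 0.0101 from limma (adjusted, 0.9996), and without Plekhg5-deficient nerve 5 it was -0.41. The intervals of Cufflinks were wide at this level, from 1.65 to 5.06 FPKM in wild-type nerve 5 and from 0.436 to 1.84 FPKM in Plekhg5-deficient nerve 5.

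Marveld2 (ENSMUSG00000021636, chr13:100595957-100616971) encodes tricellulin, which seals the points where 3 cells meet. It was close to the limit of measurement, at 0.325, 0.378 and 0.506 FPKM in the wild type and 0.649, 0.177 and 0.246 FPKM in mutant nerves. As with Ocln, Plekhg5-deficient nerve 2 was high, here the highest of all, and the other two were below the wild-type range. The log2 difference was -0.062 (SE 0.16, limma adjusted p = 0.990), and at this level the pseudocount of 1 holds differences small. A small nuclear RNA gene, Gm24261, lies within Marveld2 on the other strand, but it was listed at 0, and no other annotated gene overlaps any of the 8.

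F11r (ENSMUSG00000038235, chr1:171437535-171464603) encodes JAM-A, an immunoglobulin family protein of tight junctions that is also carried by endothelium, leukocytes and platelets. Its level was 25.2, 35.2 and 41.8 FPKM in the wild type and 23.1, 17.4 and 20.7 FPKM in mutant nerves. The groups did not overlap, although wild-type nerve 2 and Plekhg5-deficient nerve 2 lay close together, with overlapping Cufflinks intervals (22.8 to 27.5 and 20.2 to 26.0 FPKM). The mean was 1.67-fold lower, and the log2 difference of -0.69 (SE 0.23, 95% interval -1.24 to -0.14) had an unadjusted p of 0.0212 and an adjusted p of 0.905 from limma. The exact two-sided permutation test again gave its smallest value, p = 0.1.

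Several other carriers of JAM-A could be followed in the same libraries. Wild-type nerve 5, with the highest F11r, was the one with high T-cell and B-cell markers. Without it the difference of F11r in limma was -0.54 (unadjusted p = 0.0647). In limma it was -0.65 (unadjusted p = 0.0610) without wild-type nerve 4 and -0.59 (unadjusted p = 0.0669) without Plekhg5-deficient nerve 3. Without wild-type nerve 2 it was -0.88 (unadjusted p = 0.0066 from limma). Without Plekhg5-deficient nerve 2 or 5 it was -0.78 and -0.71 (unadjusted p = 0.031 and 0.040 from limma). The 6 platelet genes summed to between 50.7 and 75.1 FPKM in the wild type. In mutant nerves 2, 3 and 5 their sums were 28.9, 32.5 and 120.9 FPKM. Pf4 was the largest part of each sum. It was at 45.7 to 66.9 FPKM in wild-type nerves and at 22.6, 27.8 and 66.2 FPKM in these mutant nerves. Nerve 5 of the mutant exceeded the other libraries by 2-fold or more in 4 of the 6 genes, Ppbp (44.8 FPKM there) among them, but not in Pf4. Of 15 endothelial genes, 0 were lower or higher at an unadjusted p under 0.05, and their sum ran from 208 to 302 FPKM in wild-type and from 170 to 384 FPKM in mutant nerves (Pecam1 42.0 ± 18.7 against 47.2 ± 24.6 FPKM; Vwf 36.9 ± 13.1 against 68.8 ± 53.8). The part of lymphocytes, platelets and vessels in the difference of F11r was not tested.

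Of the plaque protein genes, Tjp1 (ENSMUSG00000030516, chr7:65296165-65371239) was the most abundant of the 8 genes and varied most in FPKM. Its level was 67.5, 124 and 64.3 FPKM in the wild type and 102, 71.6 and 62.2 FPKM in mutant nerves, with 1 high library in each group. The log2 difference was -0.081 (SE 0.32, 95% interval -0.85 to 0.69, limma adjusted p = 0.996), and it was 0.22 without wild-type nerve 4. Cgn (ENSMUSG00000068876, chr3:94760069-94786492) was near the limit in all libraries, at 0.193, 0.105 and 0.147 FPKM in wild-type and 0.107, 0.244 and 0.205 FPKM in mutant nerves. In wild-type nerves 4 and 5 and in Plekhg5-deficient nerve 2 its Cufflinks interval reached 0, so a difference in Cgn (log2 0.045, SE 0.098, limma adjusted p = 0.987) was not detectable at this level.

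**Figure D2:**
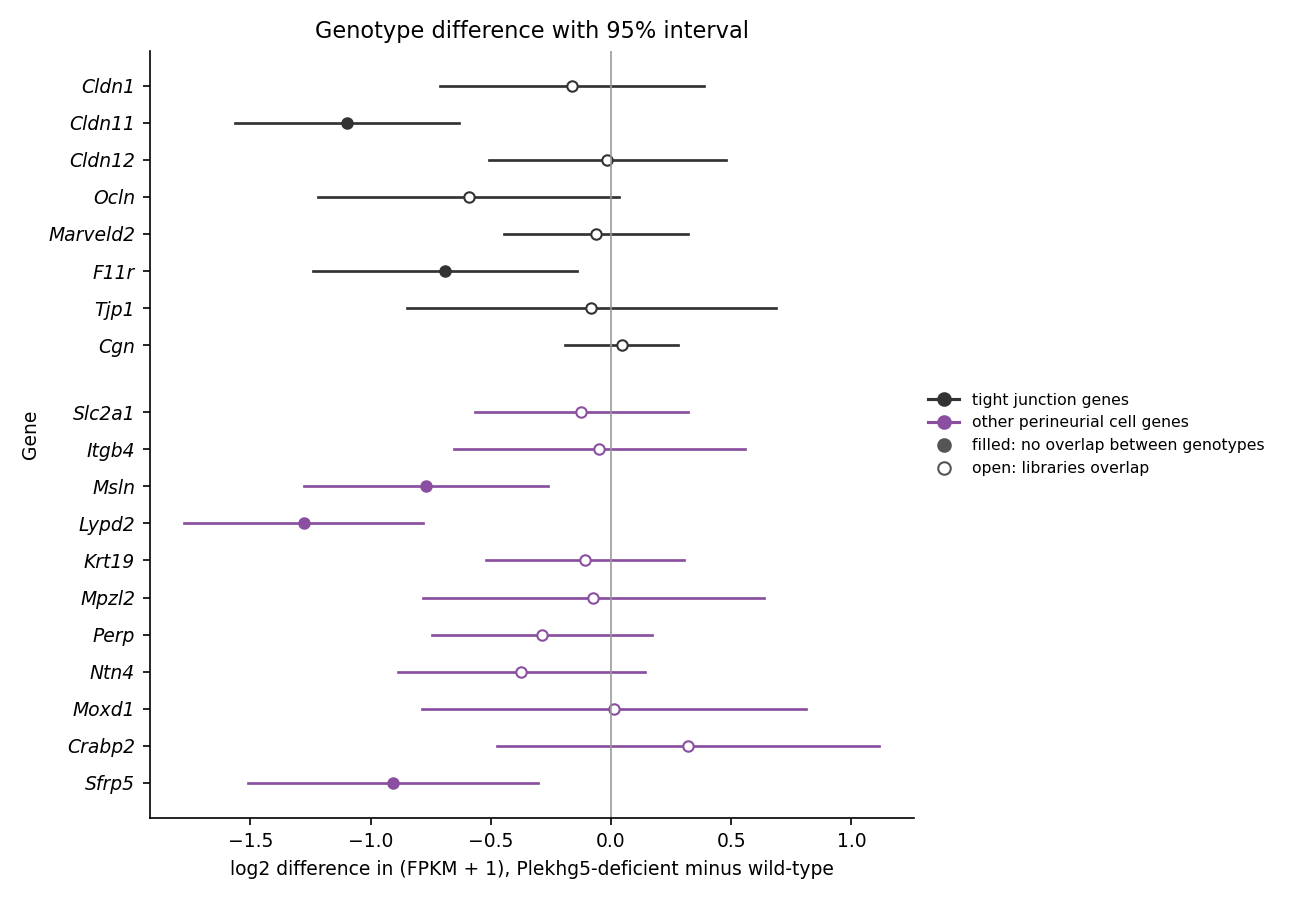
Genotype difference (Plekhg5-deficient minus wild-type, log2 of scaled FPKM + 1) with its 95% interval from limma for the 8 tight junction genes (black) and the 11 other perineurial genes tested (purple), filled where the 3 libraries of each genotype do not overlap. Cldn11 at -1.10, F11r at -0.69, Lypd2 at -1.28, Sfrp5 at -0.91 and Msln at -0.77 are filled, with intervals below 0, although no gene in the plot passed the adjusted threshold.

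Levels were also expressed relative to Cldn1 in the same library, which needs no scaling. Relative to Cldn1, Cldn11 was at 0.121, 0.0803 and 0.0681 in wild-type nerves and at 0.0320, 0.0509 and 0.0330 in Plekhg5-deficient nerves. The groups remained apart and the mean ratio was 2.32-fold lower. For F11r the ratio was 0.409, 0.408 and 0.496 against 0.268, 0.305 and 0.321, which is 1.47-fold lower on the mean. Nerve 2 of each genotype came less close here than in FPKM. Cldn1 itself was lowest among wild-type nerves in nerve 2 (61.6 FPKM) and highest among Plekhg5-deficient nerves in nerve 2 (86.1 FPKM), which widens that gap. F11r was not set against another gene. The ratio of Ocln to Cldn1, at 0.0469, 0.0378 and 0.0398 against 0.0339, 0.0266 and 0.0176, did not overlap either, in contrast to the level of Ocln itself, and was 1.59-fold lower. Cldn12, Tjp1 and the glucose transporter gene Slc2a1 kept overlapping ratios (Slc2a1, 1.29, 1.21 and 1.25 against 1.10, 1.42 and 1.35). Taken against Cldn12 in place of Cldn1, Cldn11 was at 1.26, 1.02 and 1.14 against 0.390, 0.516 and 0.437, a 2.55-fold lower mean without overlap, while the ratio of Ocln to Tjp1 overlapped. In all, 11 ratios were computed, and each one without overlap had the smallest exact permutation p of 0.1 (two-sided, 0.157 after adjustment over the 11), since 3 against 3 animals cannot reach 0.05. Most of these ratios share Cldn1 as the denominator, and several of their genes were already apart in level, so their number is not a result.

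**Figure D3:**
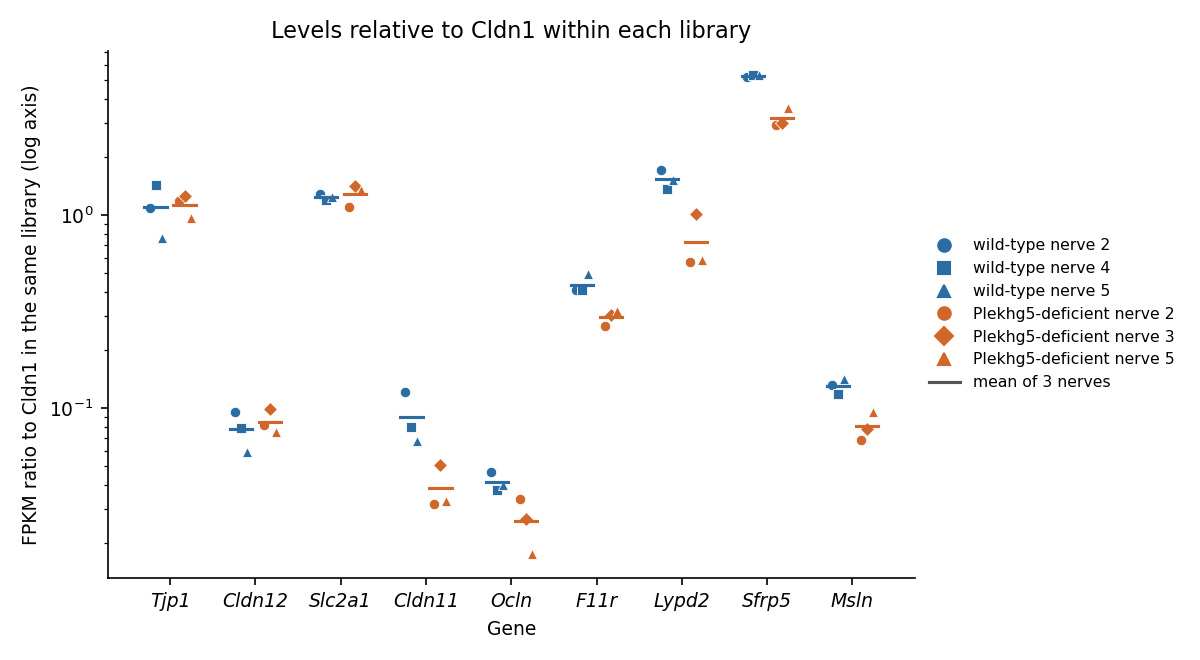
Ratio of each gene's FPKM to that of Cldn1 in the same library (log axis), wild-type in blue and Plekhg5-deficient in orange, with a bar at the mean of 3 nerves. Tjp1, Cldn12 and Slc2a1 overlap between genotypes, whereas Cldn11, Ocln, F11r, Lypd2, Sfrp5 and Msln lie lower in all 3 Plekhg5-deficient nerves.

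Perineurial genes outside the tight junction were examined next. Of the 11 tested, 0 passed the adjusted threshold, 3 were lower at an unadjusted p under 0.05 (2.69% of all genes) and without overlap (5.88% of all genes), 0 were higher, and their median log2 difference was -0.12. Slc2a1, the gene of the barrier's glucose transporter, was at 87.7 ± 7.01 FPKM in mutant nerves, a log2 difference of -0.12 from wild-type. Itgb4, which encodes a laminin receptor subunit, was at 50.2 ± 12.8 in wild-type and 48.0 ± 9.35 FPKM in mutant nerves. Lypd2, a gene of the Ly6 family, was at 106, 119 and 128 FPKM in the wild type and 49.3, 58.0 and 37.9 FPKM in mutant nerves (log2 difference -1.28, SE 0.21, limma adjusted p = 0.334). Sfrp5, which encodes a secreted Wnt antagonist, was the most abundant of the list at 321, 460 and 450 against 252, 172 and 232 FPKM (-0.91, SE 0.25, adjusted p = 0.759). Msln, the mesothelin gene, was named after its values were seen. Its level was 8.17, 10.3 and 11.9 against 5.90, 4.44 and 6.19 FPKM (-0.77, SE 0.21, adjusted p = 0.759). For all 3 genes the highest Plekhg5-deficient nerve was below the lowest wild-type nerve. Relative to Cldn1 they did not overlap either: the ratio of Sfrp5 was 5.22, 5.33 and 5.35 in wild-type nerves and 2.93, 3.01 and 3.59 in Plekhg5-deficient nerves, and the mean ratios of Lypd2 and Msln were 2.12-fold and 1.62-fold lower. The summed level of the 12 genes was 626 to 848 FPKM in wild-type and 433 to 547 FPKM in mutant nerves, with Sfrp5 as the largest part.

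The other junction genes were taken from fixed lists. Of 30 further claudins listed, 23 were in the tables and 12 passed the limit on low values, and of these 0 were lower or higher at an unadjusted p under 0.05 and the median log2 difference was 0.056. The most abundant were Cldn19, the claudin of Schwann cell myelin (141 ± 55.8 against 113 ± 42.5 FPKM), and Cldnd1 (59.0 ± 5.20 against 62.4 ± 11.3). Cldnd1 (ENSMUSG00000022744) was listed under the name Cldn25. Next came Cldn22 (15.0 ± 3.97 against 12.9 ± 1.13) and Cldn5, the claudin of endothelium (14.8 ± 2.56 against 12.1 ± 2.32). An antisense gene, Gm12927, overlaps Cldn19 at 3.16 FPKM, and the strand setting of the counting was not given, so their reads may not be separated.

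Of 12 other membrane proteins of tight junctions, 0 were past an unadjusted p of 0.05 (median log2 difference -0.043). Of the 12, 1 was lower without overlap (5.88% of all genes). Jam3 was at 72.7 ± 22.2 against 81.0 ± 29.1 FPKM, Jam2 at 22.7 ± 1.42 against 23.2 ± 3.58, Marveld1 at 23.0 ± 4.14 against 16.9 ± 2.49 and Tmem47 at 10.8 ± 1.87 against 13.1 ± 3.26. Jam2 and Jam3, the relatives of F11r, thus overlapped between genotypes. Of 28 plaque and polarity proteins, 24 had an estimate below 0 (median -0.16), as had 10417 of the 21285 genes tested. None of the 28 passed the adjusted threshold, and 1 was lower without overlap (5.88% of all genes). At an unadjusted p under 0.05, 2 were lower (2.69% of all genes). These were Sympk, the symplekin gene (26.3 ± 4.42 against 18.0 ± 2.58 FPKM, log2 difference -0.52), and Arhgef2, which encodes the exchange factor GEF-H1 that cingulin binds (25.9 ± 6.79 against 16.6 ± 2.51 FPKM, -0.59). Amotl2 was even (26.4 ± 5.19 against 26.3 ± 8.47 FPKM), and Ybx3 reached 819 FPKM in nerve 5 of the mutant, with 114 to 308 FPKM elsewhere. Of 11 adherens junction genes, 0 were past an unadjusted p of 0.05 and the median was -0.24, with Ctnnb1 at 106 ± 6.47 against 90.3 ± 14.7 FPKM, Jup at 64.5 ± 8.02 against 51.6 ± 15.2, Ctnnd1 at 58.6 ± 19.97 against 50.8 ± 9.31 and Ctnna1 at 57.8 ± 12.6 against 57.9 ± 8.05.

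**Figure D4:**
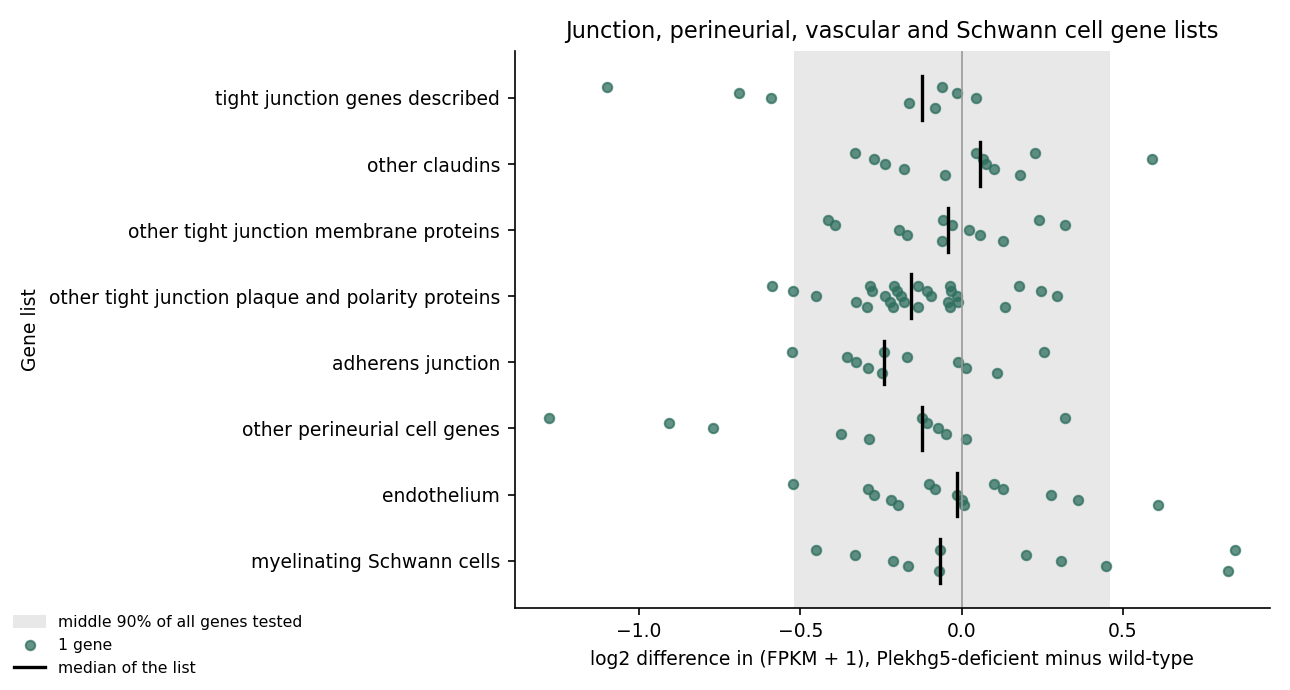
Log2 difference (Plekhg5-deficient minus wild-type) of each tested gene, 1 point per gene, in the 8 tight junction genes and 7 other lists, with a bar at each list's median and the middle 90% of all genes tested shaded (-0.52 to 0.46). The 3 points furthest left in the top row are Cldn11, F11r and Ocln, and those furthest left among other perineurial genes are Lypd2, Sfrp5 and Msln.

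Other cells that could contribute junction transcripts were looked at as well. Defining genes of epidermis (Krt5 and Krt14) were listed at 0 in all 6 libraries, and of the 3 epidermal genes above the limit, 0 were past an unadjusted p of 0.05 (Krt10 and Lor, at most 1.59 and 0.242 FPKM). Epcam, which defines simple epithelium, did not exceed 0.134 FPKM. Of the 4 simple epithelial genes above the limit, 0 were past an unadjusted p of 0.05 (Krt18, 0.597 ± 0.257 against 1.76 ± 2.52 FPKM), and most of their sum was Cdh1 (28.5 ± 10.2 against 29.5 ± 13.3 FPKM), which Schwann cells also use. Of 11 genes of myelinating Schwann cells, 0 passed the adjusted threshold, and Pmp22 was at 5851 ± 2232 against 7881 ± 2301 FPKM.

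The genes whose pattern over the 6 libraries was most like that of Cldn1 were Ntrk3, Nhsl2 and Kirrel, with root mean square differences of 0.060, 0.063 and 0.066 in log2 units between centred profiles (13649 genes with at least the range of Cldn1, 0.59, were compared). All 3 were highest in some of the libraries in which Cldn1 was above 80 FPKM (wild-type nerves 4 and 5 and Plekhg5-deficient nerve 2) and lowest in Plekhg5-deficient nerve 3. Ntrk3 was at 6.07, 7.84 and 8.50 FPKM in wild-type and 8.56, 4.98 and 6.24 FPKM in mutant nerves. None of the other 7 tight junction genes was among these 3. Cldn12, Marveld2 and Cgn varied less than Cldn1 in log2 units, so they could not have been chosen.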

How the data were processed

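Gene-level FPKM of 6 sciatic nerve libraries (3 wild-type and 3 Plekhg5-deficient, grouped by their labels) were deposited by the authors, who trimmed reads with Trim Galore 0.4.0, removed the first 9 nucleotides, mapped to GRCm38 with STAR and estimated FPKM with Cufflinks 2.2.1. The annotation release, strand setting and read depth were not given in the sources used here, so precision is given by the intervals of Cufflinks and the spread between animals. Where an identifier occurred repeatedly (19 cases), its FPKM were added up. The limit for a gene to be tested was 0.1 FPKM, reached by the mean of 1 genotype or both, the value by which the study defined expressed genes for its gene ontology background. Libraries were scaled by the median of ratios, 1 was added, and limma 3.58.1 (R 4.3.3) was run on log2 values, with genotype alone in the model, a trend in the variance and p-values adjusted after Benjamini and Hochberg. The threshold was an adjusted p of 0.05. Fold differences of means are of scaled FPKM, log2 differences are of log2(FPKM + 1) and understate low genes. The script was tested on simulated data.

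The 8 genes and 15 lists (172 symbols, 7 of them not found in the tables) were chosen with earlier results of these data known. Genes were named by a rule: the 8 members, Plekhg5, the 4 most abundant genes of each junction list and of the other perineurial genes, the 2 most abundant of each other marker list, and the 3 genes most like Cldn1. Msln, Mog, Ttr, Krt5, Krt14, Krt23 and Epcam are exceptions, named after their values were seen. Of the genes chosen by the rule, some are left out here. Alternatives were other pseudocounts, limits, scalings and variance models, library weights, a replicate block and leaving out libraries. The upstream windows are from RefSeq.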

Additional observations from a re-analysis of the deposited data

How the results depend on the processing

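No tight junction gene passed the adjusted threshold under any of the 17 alternative settings, and the lowest adjusted p was 0.0845 (Cldn11, with array weights, which lower the weight of libraries that stand apart). Cldn11 (log2 -1.34 to -1.02), F11r (-0.88 to -0.53) and Ocln (-0.84 to -0.25) kept their direction under all settings. Differences near 0 changed sign: with array weights those of Cldn1, Cldn12, Tjp1, Marveld2 and Cgn were 0.049, 0.087, 0.041, 0.15 and -0.0092, and without both libraries numbered 5 that of Marveld2 was 0.044. Leaving out 1 library at a time gave ranges of -0.33 to -0.040 for Cldn1, -1.20 to -1.02 for Cldn11, -0.14 to 0.088 for Cldn12, -0.84 to -0.41 for Ocln, -0.29 to 0.22 for Tjp1, -0.21 to 0.032 for Marveld2, 0.0082 to 0.091 for Cgn and -0.88 to -0.54 for F11r. The median of the 8 genes ranged from -0.31 (without Plekhg5-deficient nerve 2) to -0.036 in these fits. It was -0.38 with a minimum of 1 FPKM, which leaves out Marveld2 and Cgn, and 0.016 with array weights.

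The number of tight junction genes lower at an unadjusted p under 0.05 was 1 to 3 with 1 library left out. It was 1 (Cldn11, without F11r) without wild-type nerve 4 or 5 or Plekhg5-deficient nerve 3, 3 (with Ocln) without Plekhg5-deficient nerve 2, and 1 without both libraries numbered 5. With FPKM as deposited, the median of all genes was -0.094, against 0.0065 in the main fit, and the median of the 8 genes was -0.29. Wild-type and Plekhg5-deficient nerves share the numbers 2 and 5, but the labels do not say that these mark pairs. Deviations of same-numbered nerves from their group means correlated at 0.073 and 0.580. Those of differently numbered nerves correlated at -0.522 to 0.457. With a replicate block over the 4 libraries numbered 2 and 5, the differences of Cldn1, Cldn12, Tjp1, Marveld2 and Cgn were 0.040, 0.087, 0.26, 0.019 and -0.019. In that fit 1 gene (Cldn11, -1.14, unadjusted p = 0.0065 from limma) was lower at an unadjusted p under 0.05. The depth is unknown, and at the level of Marveld2 and Cgn the pseudocount limits what could be seen.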
